A study of Mus musculus with 2207 samples.

Results

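The 9 genes described here encode parts of the machinery that releases neurotransmitter from synaptic vesicles, and were chosen by name from the 52636 genes of the deposited expression tables: *Snap25*, *Stx1a*, *Vamp2*, *Syt1*, *Cplx1*, *Cplx2*, *Syn1*, *Syp* and *Erc2*. All 9 were found, each as 1 row. In a presynaptic terminal, vesicles filled with transmitter dock at the active zone, where the vesicle SNARE protein synaptobrevin pairs with syntaxin and SNAP-25 on the plasma membrane. Complexins hold and prime this complex, and synaptotagmin senses the calcium that triggers fusion. Neurons of every class release transmitter in this way, while microglia and oligodendrocytes do not form such terminals, so nuclei with these labels gave the background.

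The data are single-nucleus RNA-seq profiles of mouse cortex, made by RamDA-seq, which reads total RNA over full transcript length from random primers. They hold 2207 nuclei in 6 pools, each from 3 C57BL/6 mice (C57BL6/J in the methods) that were 14 weeks old and had received tamoxifen 2 times at 100 mg/kg, at 3 weeks of age by the labels and 1 week apart by the methods. In 96-well plates these were WT (*Ehmt1*+/+) and *Ehmt1* Δ/+. In 384-well plates they were WT (*Ehmt1*+/+; *Ehmt1* iTg without *CamKII-CreER*), *Ehmt1* Δ/+ (*Ehmt1* Δ/+; *Ehmt1* iTg without *CamKII-CreER*), iTg (*Ehmt1*+/+; *Ehmt1* iTg; *CamKII-CreER*) and *Ehmt1* Δ/+; iTg (the deletion, the transgene and *CamKII-CreER*). The study's own description gives *CamKII-CreER* for the whole 384-well series, and the labels, which give it for 2 pools, are followed here. *Ehmt1* encodes the histone methyltransferase GLP, its heterozygous loss models Kleefstra syndrome, and iTg is a *Rosa26* transgene that makes FLAG-GLP after Cre has acted, here in forebrain neurons that use the *CamKII* promoter. The labels do not say which mouse a nucleus came from, so each pool mean counts as 1 value, and the p-values measure the spread between pools.

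The 6 pools held 1664 neurons and 397 oligodendrocytes in all, and 16 to 36 microglia each, with a median of 323273 to 397880 reads per neuron. Glial nuclei had a median of 441701 to 510639 reads in 96-well plates and 39940 to 54877 reads in 384-well plates. The labels matched their defining markers: the summed mean level of 10 microglia markers was 2749 to 4375 RPKM (reads per kilobase of exon, scaled to the read total) in microglia and at most 11.99 RPKM in neurons, and that of 10 oligodendrocyte markers was 3505 to 5784 RPKM in oligodendrocytes and at most 19.02 RPKM in neurons. *Ehmt1* itself was not lower in the pools labelled *Ehmt1* Δ/+. In neurons it was at 18.7, 19.5 and 20.7 RPKM in the 3 pools without the deletion and at 31.2, 31.7 and 33.9 RPKM in the 3 pools labelled with it, so the gene-level value separated the pools in the direction opposite to a loss. The tables count reads over the whole gene and do not read the deleted part alone, and every direction given for the deletion therefore rests on the labels. In 384-well plates the WT pool carried a plate code of its own and the other 3 pools shared another, so that there the WT genotype and the plate code cannot be told apart.

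On mm10, *Snap25* (ENSMUSG00000027273.13) lies on chromosome 2 from 136713453 to 136782428, *Stx1a* (ENSMUSG00000007207.10) on chromosome 5 from 135023482 to 135051100, and *Vamp2* (ENSMUSG00000020894.16) on chromosome 11 from 69088490 to 69092384. *Syt1* (ENSMUSG00000035864.14) lies on chromosome 10 from 108497650 to 109010982, *Cplx1* (ENSMUSG00000033615.9) on chromosome 5 from 108518554 to 108550024, and *Cplx2* (ENSMUSG00000025867.8) on chromosome 13 from 54371349 to 54383917. *Syn1* (ENSMUSG00000037217.15) lies on chromosome X from 20860511 to 20921004, *Syp* (ENSMUSG00000031144.15) on chromosome X from 7638471 to 7653256, and *Erc2* (ENSMUSG00000040640.11) on chromosome 14 from 27622428 to 28478537. The reads behind a value differed widely, from a median of 7 reads per neuron for *Cplx1* to 223.5 for *Snap25*. Exons of *Syp*, *Syn1* and *Erc2* overlap a gene on the opposite strand (*Gm14703*, *Araf* and *Gm45645*), and 48.1%, 18.3% and 13.8% of their values above 0 were not whole reads, with a tolerance of 0.005 reads. For *Cplx2*, with no such overlap, this share was 9.41%. For the other members with no such overlap it was 1.62% (*Snap25*), 0.238% (*Vamp2*), 0.227% (*Stx1a*) and 0% (*Syt1* and *Cplx1*). Over all genes, 68.5% (96-well) and 74.6% (384-well) of the values above 0 were whole reads within 0.001 reads. That tolerance is narrower and all genes include overlapping ones, so these shares cannot be compared directly with those of the members. What made these values, most of all those of *Syp*, depart from whole reads was not tested.

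Among the members, *Stx1a*, *Erc2* and *Cplx1* differed most between classes of neurons, and the 250 bases before their transcription starts are shown for reference, read from RefSeq on GRCm38.p6 and written 5′ to 3′ on the gene's strand. Capitals mark a GC box (GGGCGG, or CCGCCC on the other strand) or a CRE core (TGACG, or CGTCA on the other strand).
Stx1a (chr5:135023232-135023481, + strand): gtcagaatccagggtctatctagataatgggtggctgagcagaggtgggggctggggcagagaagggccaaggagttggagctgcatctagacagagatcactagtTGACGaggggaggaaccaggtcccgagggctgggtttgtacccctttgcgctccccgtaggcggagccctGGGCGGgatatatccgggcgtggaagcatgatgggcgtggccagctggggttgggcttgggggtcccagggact
Erc2 (chr14:27622157-27622406, + strand): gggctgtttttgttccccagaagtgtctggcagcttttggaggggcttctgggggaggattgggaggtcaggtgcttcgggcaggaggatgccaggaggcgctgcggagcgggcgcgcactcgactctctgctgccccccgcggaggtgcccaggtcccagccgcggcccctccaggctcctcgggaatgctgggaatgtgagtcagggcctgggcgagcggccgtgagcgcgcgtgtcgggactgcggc
Cplx1 (chr5:108550028-108550277, - strand): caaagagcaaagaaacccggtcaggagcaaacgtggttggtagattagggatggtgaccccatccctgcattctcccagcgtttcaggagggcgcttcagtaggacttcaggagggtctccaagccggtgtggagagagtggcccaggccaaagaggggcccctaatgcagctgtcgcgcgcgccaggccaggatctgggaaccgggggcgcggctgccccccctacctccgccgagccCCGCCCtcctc
The *Stx1a* window held 1 GC box and 1 CRE core, the *Cplx1* window 1 GC box, and the *Erc2* window no match of these letters. Of all 32851 promoter windows of the same length, 32.7% held a GC box and 17.8% a CRE core, so these matches are common and are a description only.

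In neurons all 9 genes were detected in most nuclei of every pool, and 8 of them were lower in both kinds of glia in every pool (the plot of neurons and glia). *Vamp2*, the vesicle SNARE gene, was the exception. The comparison of neurons with glia is a description, since the authors named the cell types from clusters and markers and *Snap25* is their neuron marker.

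**Figure D1:**
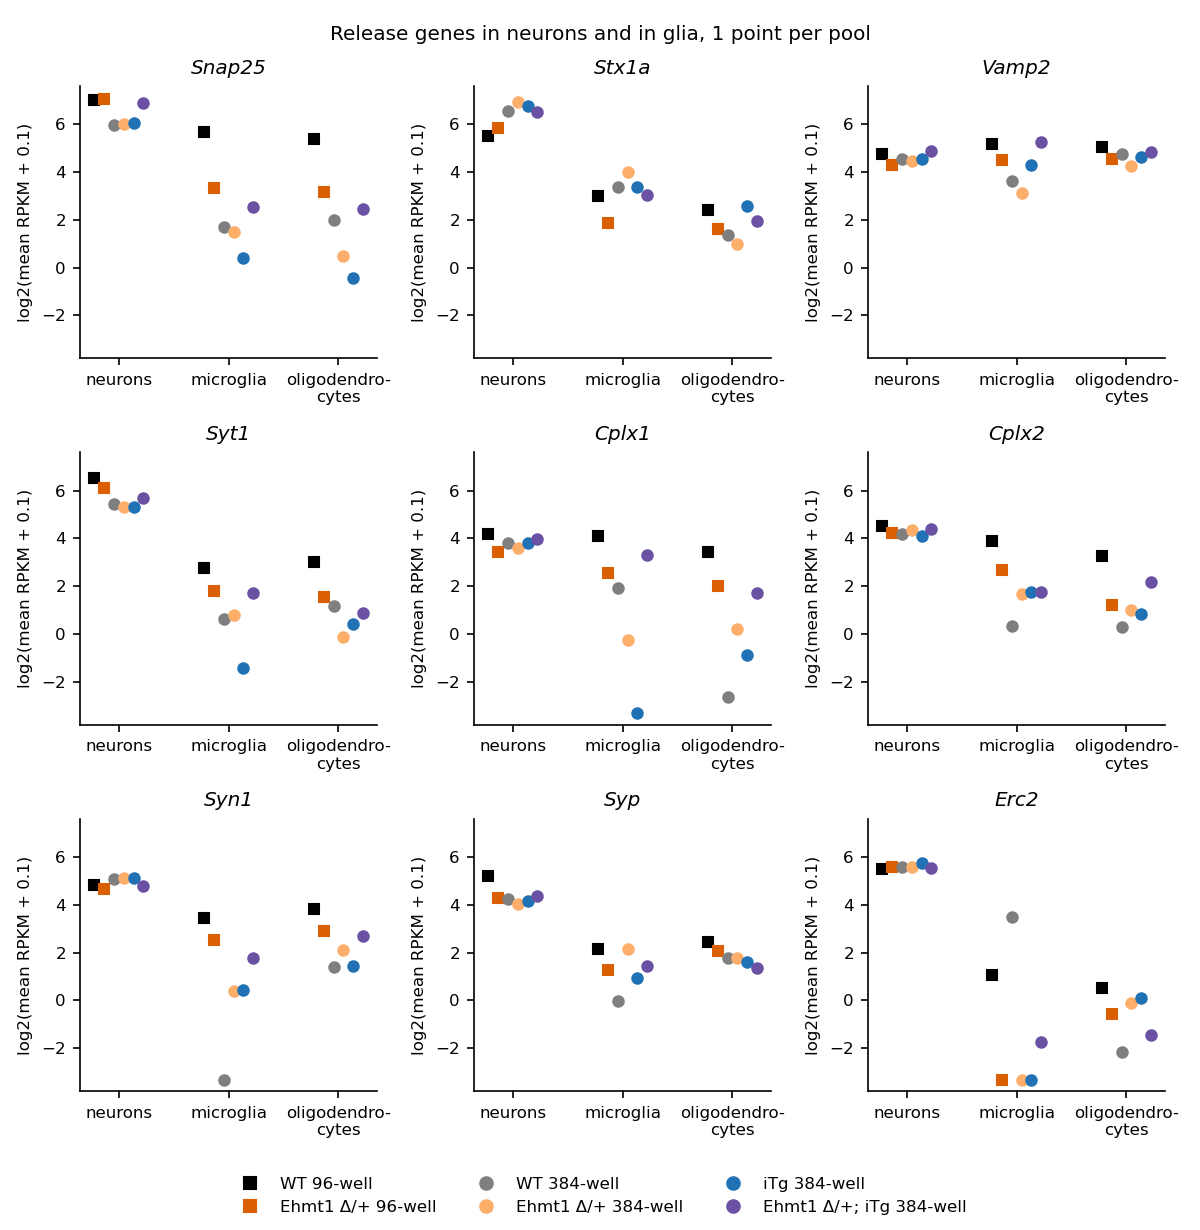
Mean level of the 9 release genes, as log2(mean RPKM + 0.1), in neurons, microglia and oligodendrocytes. Each point is the mean over the nuclei of 1 pool, squares are 96-well and circles 384-well pools. *Vamp2* is at 19.4 to 29.4 RPKM in neurons and 19.2 to 32.7 RPKM in oligodendrocytes. The WT 96-well pool (black) is the highest of 6 pools for 8 of the 9 genes in oligodendrocytes, 5 in microglia and 4 in neurons. These ranks were taken for the 9 genes only, so whether other genes rank alike is not known.

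Among the SNARE genes, *Snap25* was at 130.4 RPKM in WT and 131.1 RPKM in *Ehmt1* Δ/+ neurons of the 96-well plates, and at 62.99 (WT), 64.3 (*Ehmt1* Δ/+), 66.3 (iTg) and 118.02 RPKM (*Ehmt1* Δ/+; iTg) in the 384-well plates. Oligodendrocytes of the same pools, in this order, were at 41.3, 8.88, 3.93, 1.304, 0.651 and 5.41 RPKM, and microglia at 51.7, 9.85, 3.13, 2.70, 1.22 and 5.64 RPKM. The WT 96-well glia thus stood apart from the others, with *Snap25* in 97.2% of microglia and 100% of oligodendrocytes, against 46.9% and 70.4% in *Ehmt1* Δ/+ nuclei of the same plate format and similar depth.
*Stx1a*, which encodes the plasma membrane SNARE syntaxin-1A, was at 45.7 and 56.8 RPKM in 96-well neurons and at 94.8, 120.5, 110 and 92.5 RPKM in 384-well neurons. In microglia it was at 3.57 to 15.9 RPKM and in oligodendrocytes at 1.88 to 5.93 RPKM over the 6 pools. *Vamp2* was at 19.4 to 29.4 RPKM in neurons (median of the pools 22.96), at 8.63 to 37.6 RPKM in microglia (21.2) and at 19.2 to 32.7 RPKM in oligodendrocytes (25.8). The neuron range of *Vamp2* lay within that of microglia, and its oligodendrocyte level was between 86.1% and 123.1% of that in neurons of the same pool.

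The pool means of the genes that control fusion were higher in neurons than in glia of each pool, for *Cplx1* by little in the WT 96-well pool, where microglia were at 17.1 RPKM and neurons at 17.9 RPKM. *Syt1*, the calcium sensor, was at 93.2 and 68.1 RPKM in 96-well neurons and 42.96, 39.9, 39.6 and 51.97 RPKM in 384-well neurons, against 0.819 to 8.09 RPKM in oligodendrocytes. *Cplx1* was at 10.7 to 17.9 RPKM and *Cplx2* at 16.9 to 22.8 RPKM in neurons. Their glial background varied widely between pools: *Cplx1* in oligodendrocytes was at 10.6 RPKM in the WT 96-well pool and 0.0619 RPKM in the WT 384-well pool, and in microglia of the iTg pool it was seen in 0 of 20 nuclei, a count that would still permit 15% of nuclei (3 counts of the total, counting error only).
Of the vesicle proteins, *Syn1*, which tethers vesicles in the reserve pool, was at 25.6 to 34.9 RPKM in neurons and 2.54 to 14.2 RPKM in oligodendrocytes. *Syp*, the membrane protein synaptophysin, was at 36.7 RPKM in neurons of the WT 96-well pool and at 16.4 to 20.6 RPKM in the other 5 pools, so that 1 pool stood apart. *Erc2*, the active zone scaffold ELKS2, varied least: its neuron means were 44.9, 47.2, 47.6, 48.03, 53.1 and 46.7 RPKM (47.9 ± 2.76, SD, n = 6 pools), and oligodendrocytes held 0.266% to 2.97% of this. It was at 0 in the microglia of 3 pools, where 0 counts still permit 9.38% to 15.8% of nuclei, and 11.2 RPKM in the WT 384-well microglia came from 4 of 16 nuclei.
The shares of neurons with a gene depended on depth. With nuclei thinned to 298762 reads in 96-well and 48585 reads in 384-well plates, the median expected share of neurons with *Cplx1* was 60.2% in place of the observed 85.6%, and that with *Cplx2* 80.4% in place of 92.7%, while *Snap25*, *Syt1* and *Erc2* stayed above 99%.

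Neurons were then split by the larger of *Slc17a7* (the glutamate transporter of excitatory vesicles) and *Gad1* (the enzyme that makes GABA), which gave 1324 excitatory neurons in all and 43 to 73 inhibitory neurons per pool. Every pool held neurons with both genes above 0. *Gad1* was above 0 in 73.5% of WT 96-well neurons and in 24.5% to 40% of the neurons of the other pools. The part of such mixed signal in the class differences was not tested. A pool mean over all neurons mixes these classes, so fewer cells of a class and less RNA per cell cannot be told apart in it. Of the 9 members, 5 were higher in excitatory neurons and 1 was higher in inhibitory neurons at an adjusted p under 0.05 (limma on 12 pool-by-class means, with the pool as a term, n = 6 pools). Over all 22422 genes tested 44% passed, 21.1% higher in excitatory and 22.9% higher in inhibitory neurons, so a class difference is common in these data. The median log2 difference of the members was 0.32, and that of all genes tested was -0.023.

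**Figure D2:**
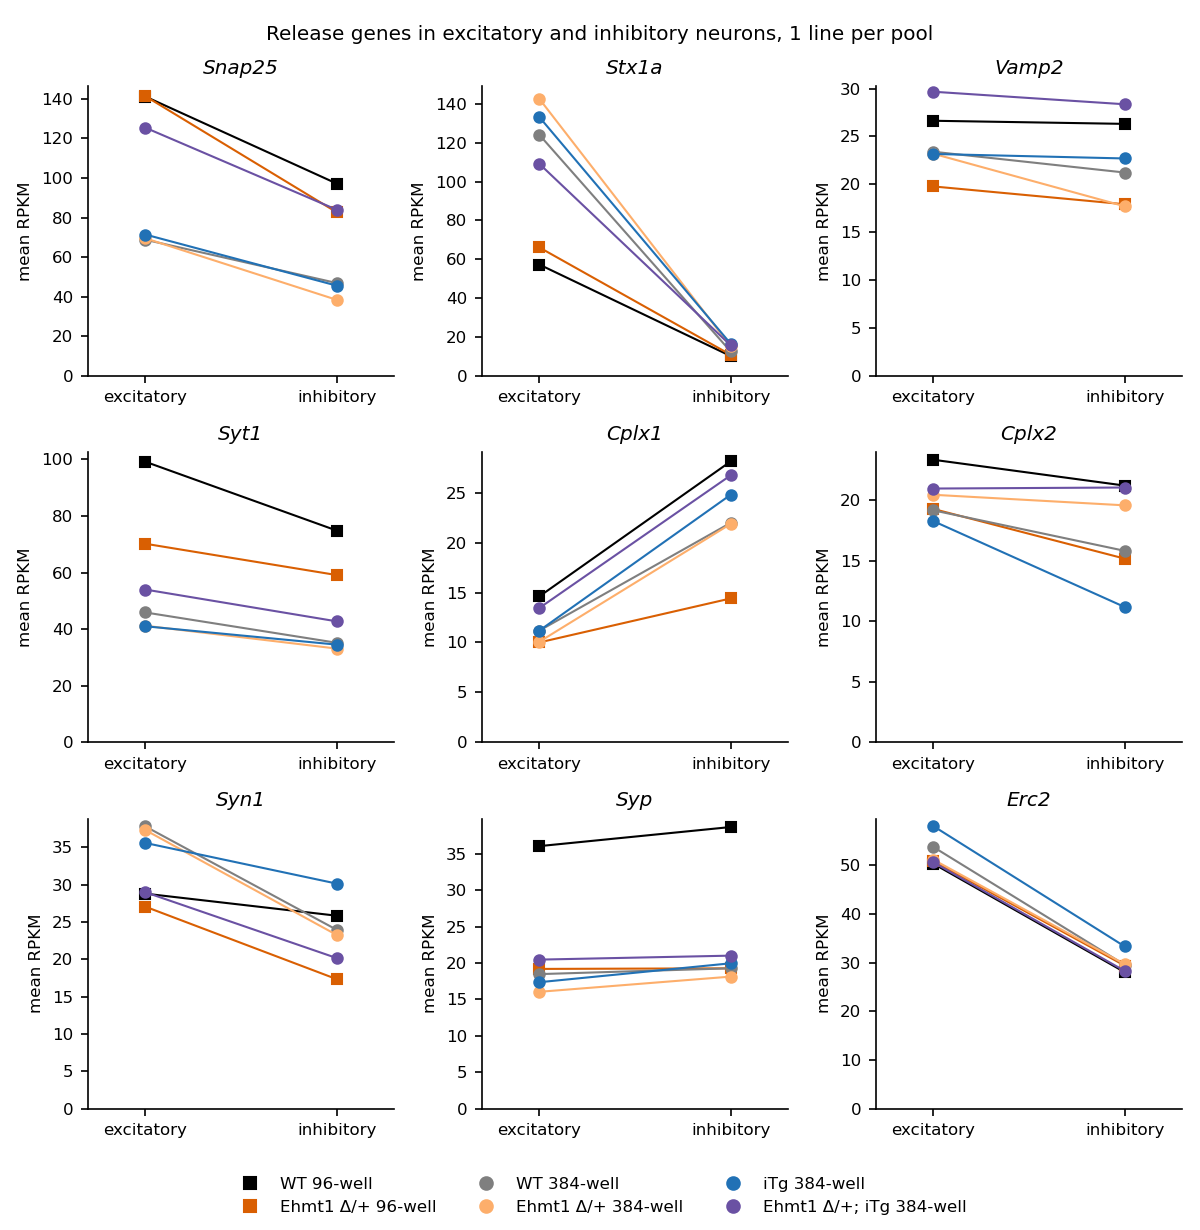
Mean RPKM of the 9 release genes in excitatory and inhibitory neurons, 1 line per pool, with each axis starting at 0. *Stx1a*, *Erc2*, *Snap25*, *Syt1*, *Syn1* and *Vamp2* fall from left to right in all 6 pools. *Cplx1* and *Syp* rise in all 6, and *Cplx2* falls in 5.

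*Stx1a* showed the greatest difference of the members. Its means in excitatory neurons were 57.3 (WT) and 66.1 RPKM (*Ehmt1* Δ/+) in the 96-well format, and in the 384-well format 124.1 (WT), 142.6 (*Ehmt1* Δ/+), 133.2 (iTg) and 109.2 RPKM (*Ehmt1* Δ/+; iTg). In inhibitory neurons of the same pools they were 10.2, 10.8, 12.5, 15.3, 16.6 and 15.7 RPKM. The groups did not overlap, and *Stx1a* was 7.45-fold higher in excitatory neurons (log2 2.90 ± 0.13 SE, adjusted p = 6.5e-06). The inhibitory range overlapped the background in microglia, 3.57 to 15.9 RPKM, and lay above that in oligodendrocytes, 1.88 to 5.93 RPKM. *Stx1a* was detected in 86.3% to 95.2% of the inhibitory neurons of a pool and in 18.75% to 61.1% of its microglia. In 384-well plates the microglia had fewer reads.
The SNARE partners of syntaxin moved less. *Snap25* was at 141.2, 141.4, 68.8, 69.5, 71.4 and 125.4 RPKM in excitatory neurons and at 97.2, 82.7, 46.9, 38.4, 45.6 and 83.99 RPKM in inhibitory neurons, which is 1.58-fold higher in excitatory neurons (log2 0.66 ± 0.071 SE, adjusted p = 0.00031). Class ranges overlapped between pools but the sign was the same in 6 of 6 pools. *Vamp2* was slightly higher in excitatory neurons in 6 of 6 pools and did not pass the test. It was at 19.8 to 29.7 RPKM in excitatory and 17.7 to 28.4 RPKM in inhibitory neurons (log2 0.13 ± 0.072 SE, adjusted p = 0.19).

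Of the complexins, 1 passed the test. *Cplx1* was at 14.6, 10.01, 11.2, 10.1, 11.2 and 13.5 RPKM in excitatory neurons and at 28.2, 14.4, 21.99, 21.9, 24.8 and 26.8 RPKM in inhibitory neurons, and was higher in inhibitory neurons of every pool (log2 excitatory over inhibitory -0.94 ± 0.094 SE, adjusted p = 0.00021). *Cplx2* was at 18.3 to 23.3 RPKM in excitatory and 11.2 to 21.2 RPKM in inhibitory neurons, higher in excitatory neurons in 5 of 6 pools, and did not pass the test (log2 0.25 ± 0.10 SE, adjusted p = 0.085). It did pass with 3 of the alternative settings, at adjusted p between 0.0025 and 0.048. *Syt1* was 1.25-fold higher in excitatory neurons (adjusted p = 0.0041), at 40.99 to 99.2 against 33.1 to 74.8 RPKM. Without the WT 96-well and *Ehmt1* Δ/+; iTg pools, an alternative chosen after seeing the data, 5 of the members passed, and *Syt1* was at log2 0.30 with adjusted p = 0.055.
Of the vesicle proteins, *Syn1* was 1.40-fold higher in excitatory neurons (27.04 to 37.8 against 17.3 to 30.1 RPKM, adjusted p = 0.0054). *Syp* was slightly higher in inhibitory neurons of every pool, at 18.1 to 38.7 against 16.1 to 36.1 RPKM, and did not pass the test (log2 -0.097 ± 0.061 SE, adjusted p = 0.24). *Erc2* was at 50.4, 50.9, 53.8, 51.2, 58.1 and 50.6 RPKM in excitatory neurons and at 28.1, 29.4, 29.6, 29.7, 33.4 and 28.3 RPKM in inhibitory neurons. This 1.76-fold difference (log2 0.82 ± 0.057 SE, adjusted p = 4.1e-05) was nearly constant, between 0.78 and 0.86 on the log2 scale over the 6 pools.

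Within the classes, neurons were grouped by the leading marker, relative to its mean in the plate format: *Cux2*, *Rorb*, *Fezf2* or *Foxp2*, which mark upper to deep cortical layers, and *Pvalb*, *Sst*, *Vip* or *Lamp5*, which mark interneuron types. The groups held 24 to 97 excitatory and 5 to 20 inhibitory nuclei per pool, are named by that 1 gene only, and are described with no test; the *Vip* group had 5 pools with at least 5 nuclei.

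**Figure D3:**
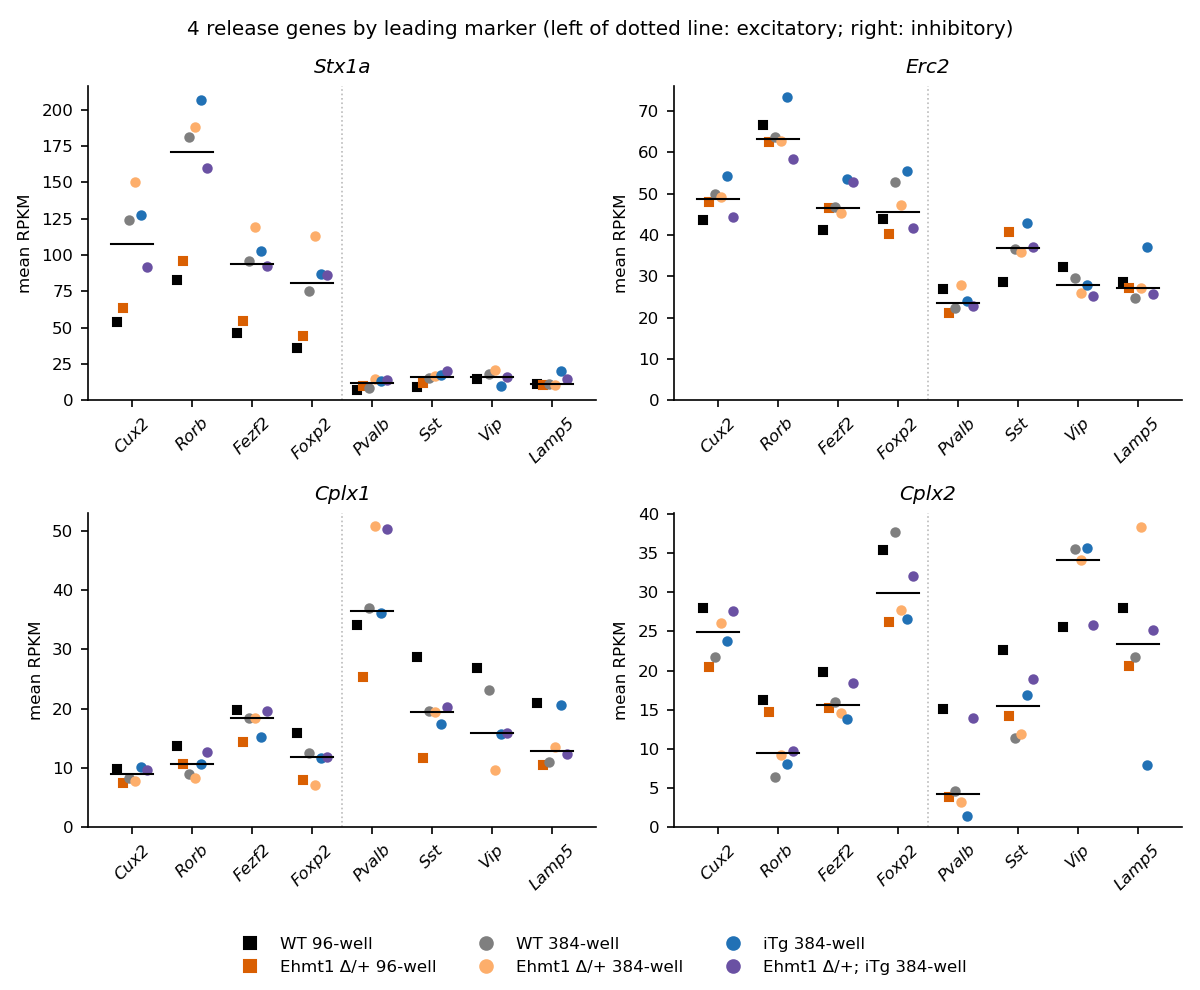
Mean RPKM of *Stx1a*, *Erc2*, *Cplx1* and *Cplx2* in neurons grouped by leading marker, 1 point per pool and a line at the median of the pools. *Stx1a* and *Erc2* are highest in *Rorb* neurons, *Cplx1* in *Pvalb* neurons, and *Cplx2* is low in *Rorb* and *Pvalb* neurons.

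*Stx1a* was highest in *Rorb* neurons in 6 of 6 pools, with a median of 170.6 RPKM (82.6 to 206.3), and lowest among excitatory neurons in the *Foxp2* group in 6 of 6, with a median of 80.8 RPKM (36.2 to 113.1). All 4 inhibitory groups had medians between 11.6 and 16.4 RPKM. *Erc2* had the same leading group, at 63.2 RPKM (58.3 to 73.4) in *Rorb* neurons against medians of 45.6 to 48.6 RPKM in the other excitatory groups. Among inhibitory neurons it was highest in the *Sst* group in 5 of 6 pools (median 36.9 RPKM) and lowest in the *Pvalb* group in 5 of 6 (23.5 RPKM).

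The order of the complexins differed between neuron groups. *Cplx1* was at 36.5 RPKM in *Pvalb* neurons (25.3 to 50.8), above every other inhibitory group in 6 of 6 pools, and within the excitatory class it was highest in the *Fezf2* group in 6 of 6 (18.5 RPKM). *Cplx2* was at 4.26 RPKM in *Pvalb* neurons (1.47 to 15.1), the lowest inhibitory group in 6 of 6, and at 9.44 RPKM in *Rorb* neurons (6.38 to 16.2), the lowest excitatory group in 6 of 6. Its medians were 34.1 RPKM in the *Vip* group, 29.9 RPKM in the *Foxp2* group and 24.9 RPKM in the *Cux2* group.
RPKM is scaled to exon length, so levels of these paralogs are set side by side here, with a limit. The RefSeq promoter window of *Cplx2* ends at 54302555, upstream of the start of its row at 54371349. The row may thus not cover the whole gene, and the part of this in the differences below was not tested. *Cplx1* exceeded *Cplx2* in *Pvalb* neurons of all 6 pools, by a median of 2.83 on the log2 scale (1.17 to 4.53), and was lower than *Cplx2* in *Cux2* neurons of all 6 pools (median -1.47, -1.72 to -1.21) and in *Foxp2* neurons of all 6 (median -1.50). In *Rorb* and *Fezf2* neurons the difference was close to 0, at medians of 0.12 and 0.12, with both signs among the pools. The pools with the most *Cplx2* in *Pvalb* neurons, at 15.1 and 13.9 RPKM, were WT 96-well and *Ehmt1* Δ/+; iTg, and the other 4 were at 1.47 to 4.68 RPKM. These are also the pools with the most *Snap25* in the glia of their plate format; the part of this background in the *Pvalb* value was not tested.
Other members had fewer constant differences between groups. *Snap25* was highest among inhibitory neurons in the *Lamp5* group in 6 of 6 pools, *Syn1* was lowest among excitatory neurons in the *Foxp2* group in 6 of 6, and *Vamp2*, with medians of 21.5 to 25.2 RPKM over the 8 groups, had no constant order.

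Beside the members, 73 of 76 further genes of the release cycle, from 5 lists, could be tested between the classes, and 25 were higher in excitatory and 22 in inhibitory neurons, with a median log2 difference of 0.035. Over all genes tested these shares were 21.1% and 22.9%. Of 18 vesicle proteins 10 were higher in inhibitory and 2 in excitatory neurons. Of 15 SNARE proteins and regulators 7 were higher in excitatory and 2 in inhibitory neurons, of 12 calcium sensors and complexins 6 and 4, of 18 active zone genes 7 and 4, and of 10 endocytosis genes 3 and 2.

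**Figure D4:**
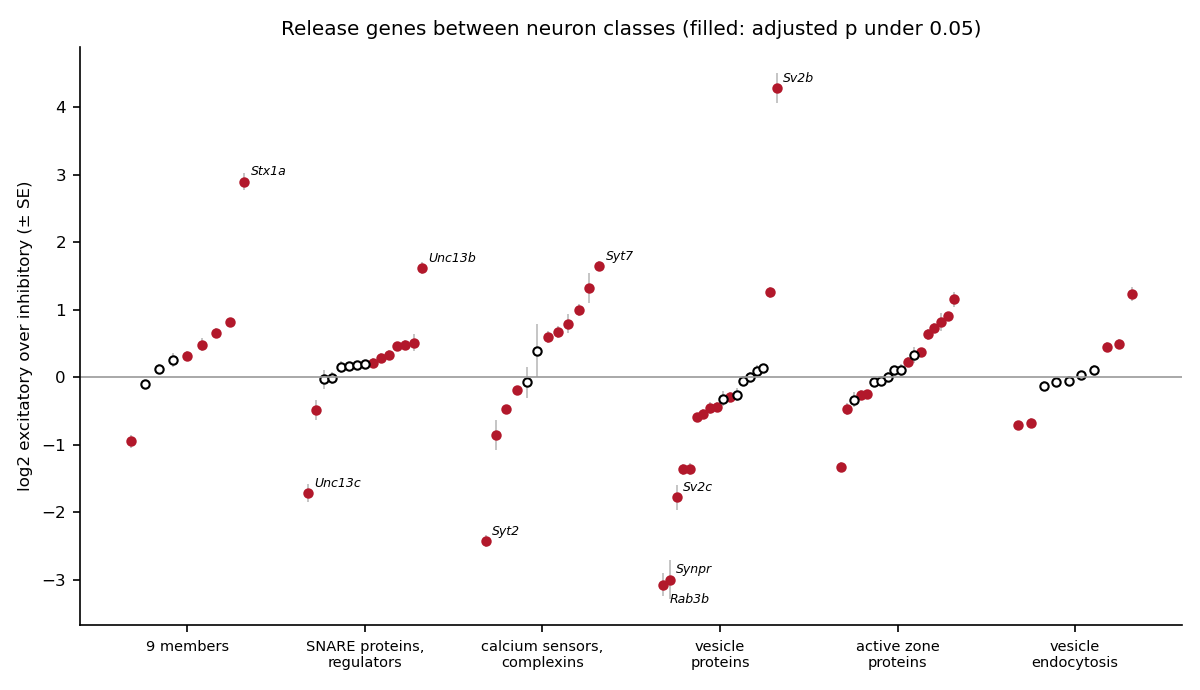
Log2 difference of excitatory over inhibitory neurons, with its SE over 6 pools, for the 9 members and for 73 other release genes by list. Filled points passed an adjusted p of 0.05; *Sv2b* and *Stx1a* are highest, *Rab3b*, *Synpr* and *Syt2* lowest.

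Paralogs parted between the classes. *Sv2b*, a synaptic vesicle glycoprotein gene, was 19.4-fold higher in excitatory neurons (log2 4.28 ± 0.22 SE, adjusted p = 1.3e-05), and its relative *Sv2c* was 3.41-fold higher in inhibitory neurons (adjusted p = 0.00027). *Syt7*, a slow calcium sensor, was 3.14-fold higher in excitatory neurons (adjusted p = 8.1e-06), and *Syt2*, a fast sensor closely related to *Syt1*, was 5.36-fold higher in inhibitory neurons (adjusted p = 4.4e-06). Of the vesicle priming factors, *Unc13b* was 3.07-fold higher in excitatory (adjusted p = 1.7e-05) and *Unc13c* 3.27-fold higher in inhibitory neurons (adjusted p = 7.2e-05).
Other genes with great differences were *Syt17* (2.51-fold) and *Sh3gl2* (endophilin A1, 2.35-fold), both higher in excitatory neurons, and *Rab3b* (8.39-fold), the vesicle protein gene *Synpr* (7.96-fold) and *Rab27b* (2.57-fold), all higher in inhibitory neurons. *Syt2* sat almost only in the *Pvalb* group, with a median of 22.4 RPKM (18.98 to 29.1) there and medians of 0.558 to 1.81 RPKM in the other 7 groups. *Vamp1*, the paralog of *Vamp2*, was also highest in *Pvalb* neurons, at a median of 8.72 RPKM, against 2.71 to 6.62 RPKM elsewhere.

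The genotype comparisons asked whether these genes differed in neurons with the deletion of 1 *Ehmt1* copy, or with the GLP transgene induced by Cre. By the labels all 384-well pools carried the transgene, so the transgene comparison sets pools with *CamKII-CreER* against pools without it. The 96-well labels give no transgene. An effect of Cre itself and one of GLP supply cannot be told apart. *Ehmt1* itself differed little with the transgene, at 19.5 RPKM in WT and 20.7 RPKM in iTg neurons and at 31.7 RPKM in *Ehmt1* Δ/+ and 33.9 RPKM in *Ehmt1* Δ/+; iTg neurons of the 384-well plates (log2 ratios 0.083 and 0.098, adjusted p = 0.98 by limma over 6 pools), so the gene-level value does not show the transgene and its directions rest on the labels too. With WT and *Ehmt1* Δ/+ pools of both plate formats (4 pools, 1 residual degree of freedom beside the spread shared over genes), none of the 9 members passed an adjusted p of 0.05 by limma, and 0% of 23853 genes did. At an unadjusted p under 0.05 there were 2428 genes, 1 of them a member.

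**Figure D5:**
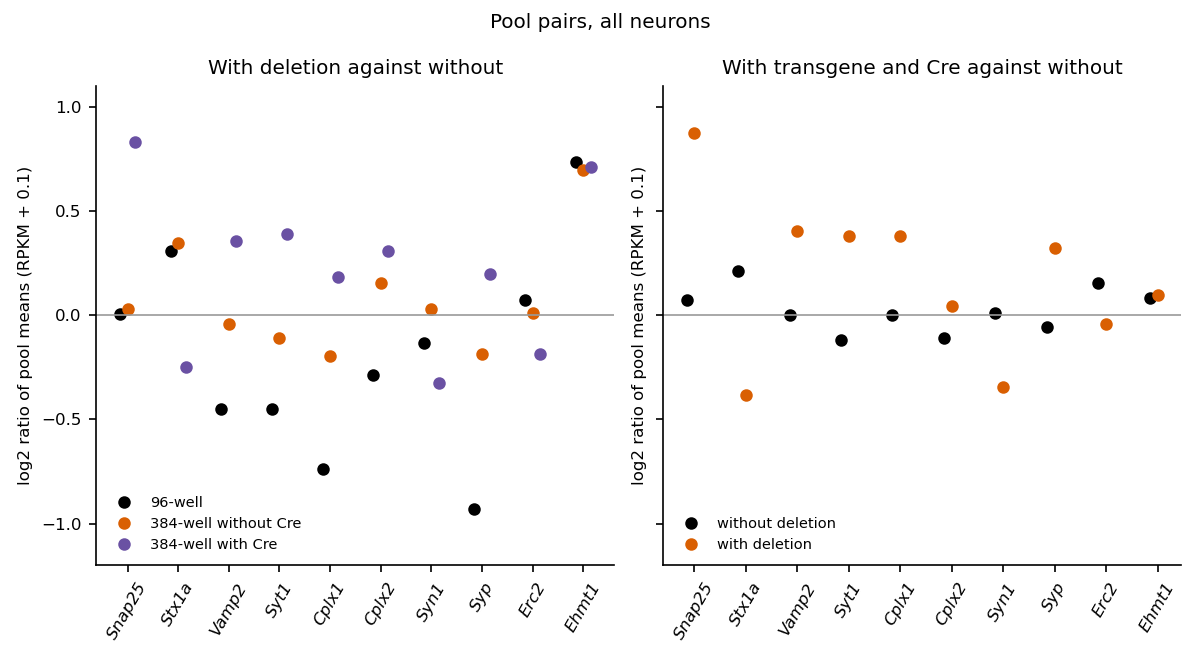
Log2 ratio of pool means in neurons for the 9 release genes and *Ehmt1*, with 1 point per pair of pools. Left, pools labelled with the deletion over their counterparts without it; right, pools with transgene and Cre over those without Cre; *Ehmt1* is near 0.7 in all 3 deletion pairs, and *Snap25* is raised in the pairs that hold the *Ehmt1* Δ/+; iTg pool.

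*Stx1a* was the member with an unadjusted p under 0.05: the log2 ratio of *Ehmt1* Δ/+ to WT was 0.31 in 96-well and 0.35 in 384-well plates (combined 0.33 ± 0.10 SE, p = 0.037, adjusted p = 0.48). Excitatory neurons made up 75.5% and 73.7% of the WT neurons and 83.02% and 82.7% of the *Ehmt1* Δ/+ neurons of these plates, and within excitatory neurons alone the *Stx1a* ratios were 0.21 and 0.20. In the third pair, *Ehmt1* Δ/+; iTg against iTg, the ratio was -0.25.
*Syp*, *Cplx1*, *Syt1* and *Vamp2* had ratios of -0.93, -0.74, -0.45 and -0.45 in the 96-well plates and of -0.18, -0.20, -0.11 and -0.044 in the 384-well plates without Cre. Within the 3 plate codes that both 96-well pools carried, the *Syp* ratios were -0.81, -1.25 and -1.21. These codes hold nuclei of the same pools, so they are no further replicates. In the third pair all 4 genes were higher, at 0.20, 0.18, 0.39 and 0.36. The pool with the higher values was in both plate formats also the one with more *Snap25* in its glia. The 7 excitatory neuron markers summed to 55.03 RPKM in WT 96-well oligodendrocytes against 13.7 RPKM in *Ehmt1* Δ/+ oligodendrocytes of that format. In the same nuclei the 10 inhibitory neuron markers summed to 94.2 and 90.3 RPKM, and 4 markers of any neuron to 30.9 and 16.2 RPKM. In neurons the 13 mitochondrially encoded genes summed to 420 RPKM in the WT 96-well pool and 118.4 RPKM in the *Ehmt1* Δ/+ 96-well pool. In the 384-well pairs this sum ran the other way to the 4 genes, at 176.999 RPKM in WT and 403 RPKM in *Ehmt1* Δ/+, and at 490.6 RPKM in iTg and 245.7 RPKM in *Ehmt1* Δ/+; iTg neurons. The part of glial background or mitochondrial RNA in these differences was not tested.

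With all 6 pools and terms for plate format, transgene and deletion, 0% of 22950 genes passed for the deletion and 0% for the transgene, none of the members among them, with 1221 and 628 genes at an unadjusted p under 0.05 and no member in either. Only *Snap25* had the same sign in all 3 deletion pairs, which is 1 of 9 members, where 31.7% of all genes did. Its ratios were 0.0074, 0.029 and 0.83, so nearly all of the fitted 0.29 ± 0.21 SE came from 1 pool. For the transgene, *Snap25*, *Vamp2* and *Cplx1* had the same sign in both pairs, 3 of 9 members beside 41.2% of all genes. The ratios without the deletion were 0.075, 0.0025 and 0.00068, and with it 0.88, 0.40 and 0.38. The *Ehmt1* Δ/+; iTg pool had the highest neuron level of the 4 384-well pools for 6 of the 9 members, and the highest oligodendrocyte level for 5 of the 9. *Snap25*, *Vamp2*, *Cplx1* and *Cplx2* were in both sets. Such ranks of pools were taken for the members only, so whether other genes ranked alike is not known.
*Erc2* was the steadiest of the members, with deletion ratios of 0.072, 0.013 and -0.19 (6 pools: -0.034 ± 0.13 SE). The spread allows real differences of this order to be missed: the SE of the members in the 6-pool fit was 0.13 to 0.24 on the log2 scale.
No member passed the test of a deletion difference that depends on the neuron class. The interaction passed for 0% of 22422 genes (1113 at an unadjusted p under 0.05, no member), and the highest interaction estimate of a member was 0.26 ± 0.18 SE, for *Syn1* (adjusted p = 0.98).
The other release genes did not pass either. In the 4-pool fit, those with the same sign in both formats and the highest estimates were *Syt6* (0.39), *Syt12* (0.32) and *Rims4* (0.27), and those with the lowest were *Syt10* (-0.69), *Syt2* (-0.60) and *Syngr3* (-0.53), at adjusted p of 0.47 to 0.53. In the 6-pool fit for the deletion, *Vamp4* (0.50), *Syt6* (0.44) and *Syt12* (0.38) were highest and *Rab3b* (-0.56), *Syt10* (-0.53) and *Ppfia4* (-0.48) lowest, each at adjusted p = 0.78. For the transgene, *Syt2* (0.38), *Picalm* (0.36) and *Syngr3* (0.33) were highest and *Syt17* (-0.53), *Syt10* (-0.43) and *Doc2b* (-0.38) lowest, each at adjusted p = 0.98. *Rab3b* and *Syt2* were higher in inhibitory neurons in the class comparison above. The share of inhibitory neurons was 24.5% and 25.6% in the WT pools and 19.3% in the iTg pool. In the 3 pools with the deletion it was 16.2%, 16.99% and 17.9%. The log2 ratios of *Rab3b* in the 3 deletion pairs were -0.70, -0.33 and -0.64. Those of *Syt2* in the 2 transgene pairs were 0.040 and 0.72. The part of the class shares in these estimates was not tested.

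Across the neurons of a pool, members varied together only in part. These rank correlations are descriptions over the 1664 neurons, taken pool by pool, which share libraries and depth. The highest median over the 6 pools was between *Stx1a* and *Erc2* (rho 0.47, 0.37 to 0.54), and within excitatory neurons alone it was 0.32 (0.23 to 0.46). *Stx1a* with *Syn1* was at 0.36 and *Stx1a* with *Snap25* at 0.35, and within excitatory neurons alone at 0.27 and 0.18. *Stx1a* and *Cplx2* ran against each other in excitatory neurons of all 6 pools (median rho -0.40, -0.46 to -0.30). *Syt1* and *Syp* were the pair that differed most between pools: in excitatory neurons rho was 0.75 in WT and 0.43 in *Ehmt1* Δ/+ 96-well pools, 0.42 in *Ehmt1* Δ/+; iTg, and in the 384-well plates 0.19 (WT), 0.10 (*Ehmt1* Δ/+) and 0.10 (iTg).
Over 11669 genes detected in at least 50% of the neurons of every pool, the genes most like *Stx1a* were *R3hdm1* (median rho 0.70 over 6 pools) and *Lingo1* (0.69). *Snap25* was nearest to *Dclk1* (0.48) and *Homer1* (0.46), *Syt1* to *Clstn1* (0.44) and *Lmtk2* (0.37), *Cplx1* to *Coro6* (0.41) and *Mroh1* (0.38), and *Syn1* to *Fhod3* (0.38) and *Stx1a* (0.36). *Vamp2* had no close match, its nearest being the activity-induced genes *Egr1* (0.26) and *Arc* (0.24). For 3 members the nearest gene was a neighbour or shared the locus: *Gm14703*, which overlaps *Syp* on the other strand (0.66), *Gm20242*, which lies within the span of *Erc2* (0.53), and *Gm48623*, 58552 bases from *Cplx2* (0.54). *Atp6v0c-ps2* (0.41), *Scube1* (0.49) and *Gm48622* (0.50) came next for these 3 members. How reads in the overlap of *Syp* and *Gm14703* were counted is not known, so this pair is uncertain. The distance to *Cplx2* is taken from its row, which starts downstream of its RefSeq promoter window. Whether *Gm48623* and *Gm48622* lie within the RefSeq gene was not tested, so these pairs are uncertain too.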

How the data were processed

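According to the methods, adapters were trimmed, reads went through HISAT2 2.0.4 onto mm10, featureCounts (Subread 1.5.0) counted them per gene with a Gencode annotation, and nuclei of poor quality or weak cell type were left out. The values the authors deposited are RPKM, in 1 table per plate format, with cell types they named from UMAP clusters and markers. Symbols and coordinates came from GENCODE M21 (GRCm38), which had a symbol for 52403 of 52636 genes. Read totals were recovered from the steps of the values and exon lengths. The methods name default counting, but all values above 0 came to hundredths of a read and many were not whole reads. Whether fractions of reads were counted was not tested, and the settings are not given in the sources used here.

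Pool means of RPKM were taken, 0.1 was added, and log2 values were fitted with limma 3.58.1 (run in R 4.3.3). P-values were adjusted by Benjamini-Hochberg, at a threshold of 0.05, over all genes above 0 in at least 10% of the neurons of 1 group in every plate format (for classes, in every pool). Folds on this scale understate changes of low genes. *Slc17a7* and *Gad1* set the classes and are no result; 7 neurons with equal values were in neither class. Thinned shares are expected shares at percentile 10 of the read totals of a plate format. On simulated data, 100 genes were changed by log2 1 and 100 by log2 2. The fit called 98% and 100% for the deletion over 4 pools, 73% and 98% over 6 pools, and 82% and 99% between classes. Of all calls, 19.5%, 10% and 6.70% were unchanged genes, above the 5% aimed at for each. These shares hold for the simulated number of changed genes and were not shown to hold for the data. There the 4-pool limma fit called 0 of 23853 genes, with a smallest adjusted p of 0.46. *Ehmt1*, at log2 0.71 in that fit, was not called. Versions of the remaining tools were Python 3.11.15, numpy 2.4.6, pandas 2.3.3, scipy 1.17.1 and matplotlib 3.10.9.

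The members, lists and rules were chosen with earlier results of these data known. Named were the 9 members, *Ehmt1*, the 6 highest and 6 lowest other release genes past the threshold between classes, in each genotype comparison those past the threshold or else the 3 highest and 3 lowest with 1 sign in every pair of pools, and the 2 genes most correlated with each member; 1 gene that this rule names is not reported here. *Vamp1*, the markers beside the results and the pools that stand apart were singled out after their values were seen. Alternatives changed the pseudocount (1 or 0.01), filter, averaging, scaling, moderation, weighting by reads, neurons used, format term, class rule and pools. RefSeq promoter windows were found for 7 of the 9 members.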

Additional observations from a re-analysis of the deposited data

How the results depend on the processing

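Between the classes, 6 members passed under 12 of the 16 alternatives, 7 under 3 (a mean of log2 values, moderation with trend, weighting by reads) and 5 without the 2 pools that stand apart; all genes past the threshold numbered 6992 to 10796. No member passed in any genotype comparison under any alternative run. No paired analysis was possible because the replicate numbers only name nuclei within a pool and mark no shared mouse; the pool (classes) and the plate format (deletion) are terms of the fits. For the deletion over 6 pools, 1 gene passed with pool means scaled by the median ratio, and leaving out 1 pool gave 0 to 1 genes.

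Signs of small genotype estimates changed, and the cause was not tested. Over 4 pools these were *Snap25* with a mean of log2 values (-0.0079), *Syn1* with scaled pool means (0.013) and *Erc2* in excitatory neurons only (-0.028). A mean of log2 values also turned *Cplx2* for the transgene (0.037) and *Syt1* in the interaction (0.050). Leaving out 1 pool gave these ranges of the log2 estimate. For the deletion over 6 pools, they were -0.25 to 0.16 for *Vamp2*, -0.28 to 0.14 for *Syt1*, -0.067 to 0.23 for *Cplx2*, -0.56 to 0.0066 for *Syp* and -0.086 to 0.042 for *Erc2*. For the transgene, they were -0.37 to 0.20 for *Stx1a*, -0.099 to 0.50 for *Vamp2*, -0.20 to 0.47 for *Syt1*, -0.13 to 0.52 for *Cplx1*, -0.22 to 0.16 for *Cplx2*, -0.24 to 0.51 for *Syp*, -0.057 to 0.17 for *Erc2*, -0.083 to 0.85 for *Syt2*, -0.071 to 0.73 for *Syngr3* and -0.83 to 0.081 for *Doc2b*. For the interaction, they were -0.28 to 0.13 for *Stx1a* and -0.032 to 0.26 for *Cplx1*. The deletion over 6 pools could not be fitted without both pools that stand apart, since no residual degrees of freedom were left. With 1 pool per group and format, differences within the spread between pools could not be detected.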
